A study of Mus musculus with 7 samples.

Results

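The genes of the oxytocin and vasopressin system, 6 in all, were followed in pancreatic islets of pregnant mice: the receptor genes Oxtr, Avpr1a, Avpr1b and Avpr2 and the hormone genes Oxt and Avp. They were chosen by symbol, as probe sets annotated to 1 of these symbols alone, and all 6 were found among 19938 genes tested, each with 1 probe set. Islets came from female mice on the C57BL/6 strain background, mated at 12 to 16 weeks of age and killed on day 15 of pregnancy. One group of 3 mice was PrlR+/+, with an intact prolactin receptor gene, and the other of 4 mice was PrlR+/-, heterozygous for a null allele and so left with 1 intact copy. The labels do not restrict the allele to islets. No agent was given to either group. RNA from each mouse was hybridised to an array of its own, so each value below is a deposited log2 probe set value of 1 animal. No non-pregnant animals are among these samples, so the values say nothing of what pregnancy itself changes.

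Oxytocin and vasopressin are closely related cyclic peptides, made mainly by magnocellular neurons of the hypothalamus and released into the blood from the posterior pituitary. The oxytocin receptor (Oxtr) and the vasopressin receptors V1a (Avpr1a) and V1b (Avpr1b) act mainly through Gq proteins and phospholipase C, which raise cytosolic calcium, whereas the V2 receptor (Avpr2) acts through Gs and cyclic AMP and is best known from the collecting duct of the kidney. In islets both peptides are known to promote hormone secretion. The prolactin receptor, whose gene dose differs between the groups, signals through Jak2 and STAT factors and takes part in the adaptation of beta cells to pregnancy.

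Because Oxtr was the brightest and most variable member and the receptor under study acts through STAT factors, the region just before its start was examined for the letters such factors are known to bind. The 250 bases before the RefSeq start of Oxtr (GRCm38.p6, chr6:112489826-112490075, minus strand) are printed 5′ to 3′, with capitals marking each match to the motifs searched. The start is the one in RefSeq's promoter table, and the window lies inside the annotated span of the gene.
Oxtr: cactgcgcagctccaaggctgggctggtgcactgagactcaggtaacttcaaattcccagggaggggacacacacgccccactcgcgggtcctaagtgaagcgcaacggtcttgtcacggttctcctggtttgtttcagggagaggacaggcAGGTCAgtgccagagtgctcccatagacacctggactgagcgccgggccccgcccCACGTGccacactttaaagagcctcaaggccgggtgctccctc
Both strands were searched for the STAT-type motif TTCNNNGAA and the cyclic AMP response element TGACGTCA, which is found in 1.55% of windows. The half-site that many nuclear receptors bind was searched as AGGTCA. The E-box, bound by many helix-loop-helix factors, was searched as CACGTG. The TATA box, which places the start of transcription at some genes, was searched as TATAAA and is found in 12.4% of windows. The Oxtr window held AGGTCA, from 98 to 93 bases before the start, and CACGTG, from 43 to 38 bases before it, with no overlap between them. Of 32851 RefSeq promoter windows of the same length, 14% held AGGTCA and 6.02% held CACGTG, so neither match is rare. TTCNNNGAA, present in 7.02% of windows, is not among the letters of this window, nor of those of Avpr1a, Avpr2, Oxt and Avp; RefSeq's table gave a window for 5 of the 6 genes. The window of Oxt held AGGTCA in each orientation, and the stretch that joins the pair (GRCm38.p6, chr2:130575984-130576008, plus strand) is shown to give their spacing; it too lies inside the annotated span of its gene.
Oxt: AGGTCAttagcagagacgaTGACCT
These are matches of letters, and no binding was measured here.

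No member passed the test between genotypes. By limma with Benjamini-Hochberg adjustment over all 19938 genes, 0 of the 6 had an adjusted p under 0.05, the groups overlapped for all 6, and 0 of the 6 had an unadjusted p under 0.05. Over all genes tested, 0% passed after adjustment. Groups did not overlap in 2.24% of genes, with PrlR+/- higher in 1.03% and lower in 1.21%. An unadjusted p under 0.05 was found in 2.2%, or 438 genes, with PrlR+/- higher in 1.07% and lower in 1.13%. Read against these shares, 0 of 6 does not set the members apart from other genes. The members differed in how much their values could show. Oxtr spread widely between mice of 1 genotype, which left a broad interval, while the other 5 had intervals within 1.39-fold in either direction.

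**Figure D1:**
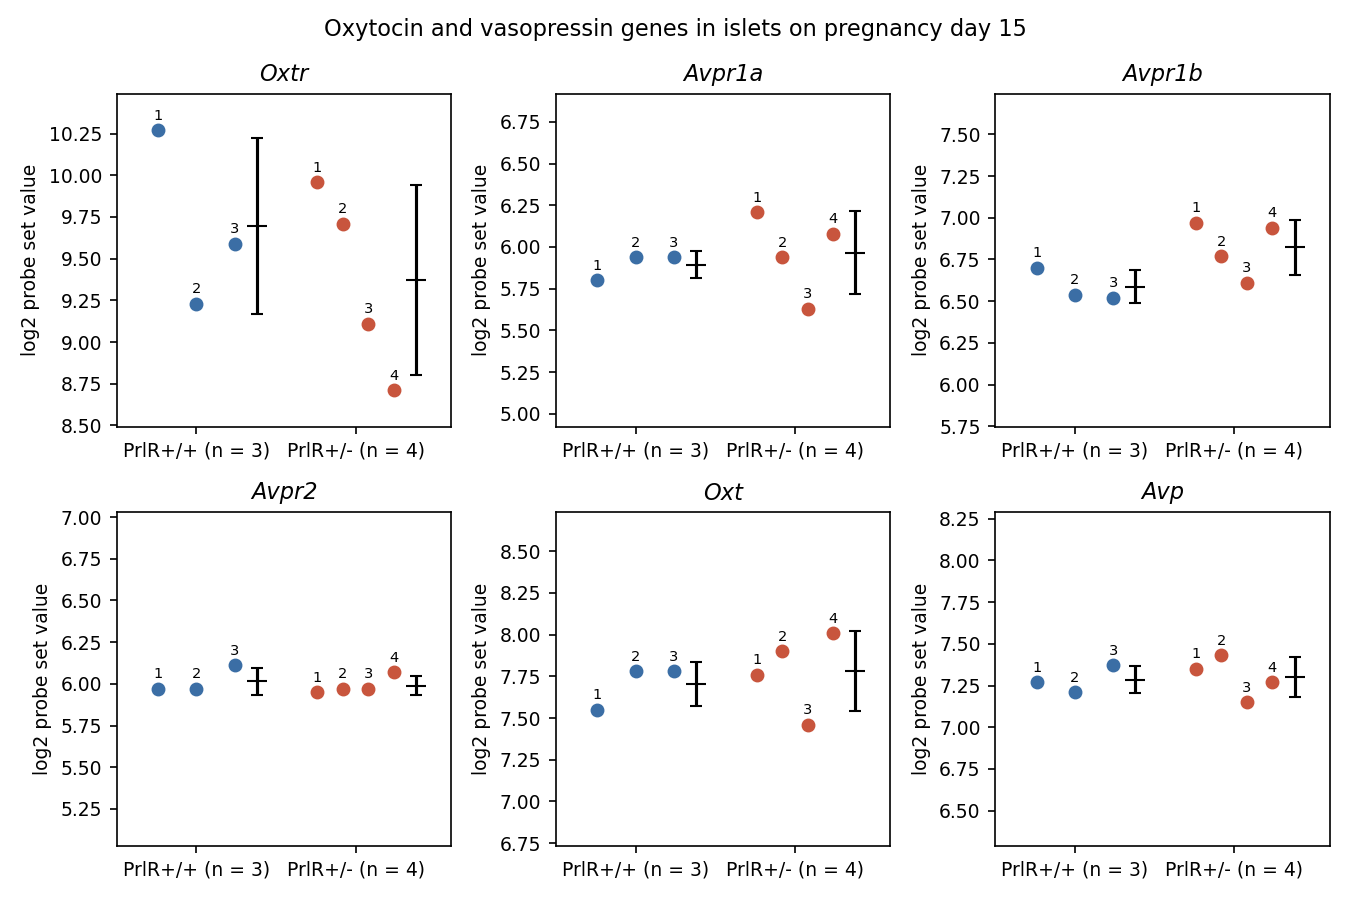
Log2 probe set value (y axis) of each of the 6 genes in 3 PrlR+/+ mice (blue) and 4 PrlR+/- mice (red), with the replicate number over each point and the group mean ± SD as a black bar; every panel spans the same 2 log2 units. Oxtr spreads from 8.71 to 10.27 across both groups, and 3 of 4 PrlR+/- mice lie above all PrlR+/+ mice for Avpr1b.

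Oxtr (probe set 10546829, chromosome 6, 112473683 to 112491035 in GRCm38.p6) is the only known receptor gene dedicated to oxytocin. It was at 10.27, 9.23 and 9.59 in PrlR+/+ mice 1 to 3 and at 9.96, 9.71, 9.11 and 8.71 in PrlR+/- mice 1 to 4. The highest value lay in a PrlR+/+ mouse and the lowest 2 in PrlR+/- mice, but PrlR+/- 1 and 2 lay above 2 of the 3 PrlR+/+ mice, so the groups were interleaved. The mean of the heterozygous mice was 9.37 ± 0.57 (SD, n = 4) and that of the wild-type mice 9.70 ± 0.53 (SD, n = 3). The log2 difference, PrlR+/- minus PrlR+/+, was -0.32 ± 0.35 (SE; limma, adjusted p = 0.99), a ratio of 0.799 with a 95% interval from 0.451 to 1.41. The 2-sided exact permutation test over all 35 splits of the 7 mice gave p = 0.486 (0.0286 is the smallest that 3 against 4 mice allow). The interval covers ratios well below and above 1, so neither a sizeable reduction nor a modest increase was resolved with these mice.

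The difference of Oxtr moved with the mice included. Without PrlR+/+ 1, the mouse of highest Oxtr, it was -0.04, and without PrlR+/- 4, the mouse of lowest Oxtr, it was -0.10. It was -0.56 without PrlR+/+ 2, -0.52 without PrlR+/- 1 and -0.11 with limma's array weights. It stayed below 0 in these and in the other alternatives run, with unadjusted p from 0.183 to 0.92.

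Between mice of 1 genotype Oxtr varied more than nearly all other genes. Its pooled SD within genotype was 0.55, against a median of 0.13 and a 95th percentile of 0.34 over all genes tested, and 99.2% of genes had a pooled SD no larger. Among the 2637 genes whose mean lay within 0.5 log2 of that of Oxtr, 99.1% had a pooled SD no larger. The full range over the 7 mice was 1.56 log2, or 2.95-fold. For the other members 76.7% (Avpr1a), 54.5% (Avpr1b), 13.3% (Avpr2), 77.5% (Oxt) and 34.1% (Avp) of all genes had a pooled SD no larger, so the wide spread was found in Oxtr alone of the 6.

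**Figure D2:**
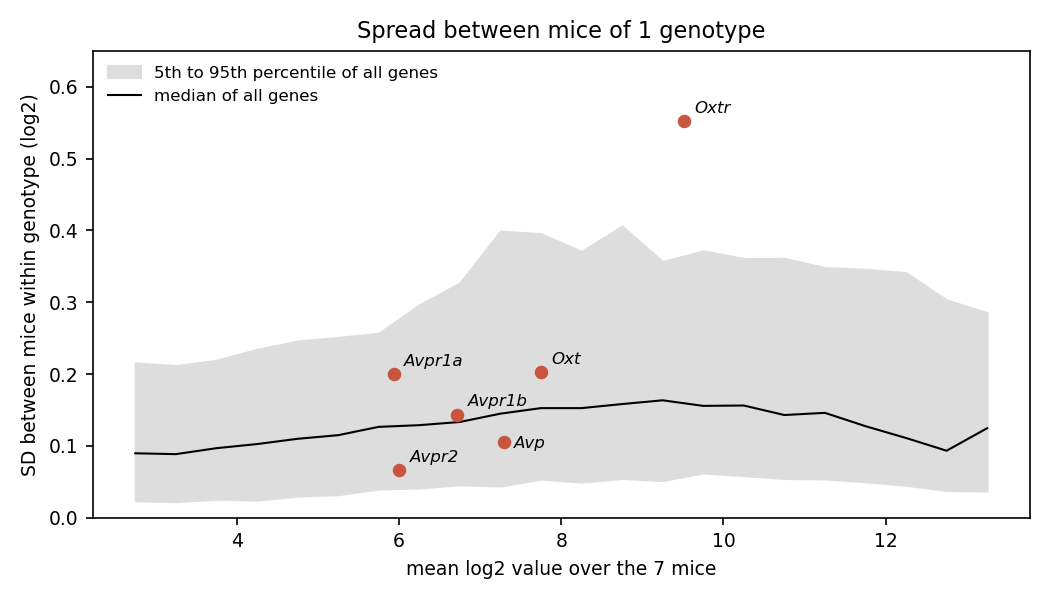
Pooled SD between mice of 1 genotype (y axis, log2) against the mean log2 value over the 7 mice (x axis) for the 6 genes (red), with the median (line) and the 5th to 95th percentile (grey) of all genes tested in bins of the mean. Oxtr lies above the grey band at 0.55, and the other 5 lie inside it.

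Avpr1b (probe set 10349644, chromosome 1, 131599114 to 131612000) encodes the V1b receptor, known from corticotroph cells of the pituitary and from islets. It was at 6.70, 6.54 and 6.52 in PrlR+/+ 1 to 3 and at 6.97, 6.77, 6.61 and 6.94 in PrlR+/- 1 to 4. Of the 4 PrlR+/- mice, 3 lay above every PrlR+/+ mouse, and PrlR+/- 3 lay below PrlR+/+ 1. The means were 6.82 ± 0.17 (SD, n = 4) and 6.59 ± 0.10 (SD, n = 3). The difference of 0.24 ± 0.10 (SE), a ratio of 1.18 with a 95% interval from 0.997 to 1.39, had the smallest p of the 6 genes (limma, unadjusted p = 0.0532, adjusted p = 0.99; 2-sided exact permutation test, p = 0.114). It kept its sign in the alternatives run, between 0.19 and 0.31, with unadjusted p from 0.0104 (without PrlR+/- 3) to 0.151 (without PrlR+/+ 3) and no adjusted p below 0.818. Avpr1b is known from alpha cells, whose 5 measured markers had a median difference of 0.065. Averaged per mouse, these markers ran from 11.05 to 11.09 in the wild type and from 10.94 to 11.16 in the heterozygotes. In PrlR+/- 4, the mouse at 10.94, Slc7a2 was at 10.50 (11.35 to 11.45 in the other mice), while Ttr was at its highest (13.16). The part of the markers in the Avpr1b values was not tested. In bulk islets, a change in the number of cells of a type and a change in RNA per cell cannot be told apart.

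Avpr1a (probe set 10366707, chromosome 10, 122448499 to 122453453) encodes the V1a receptor of vascular smooth muscle, liver and brain. Its values were 5.80, 5.94 and 5.94 in PrlR+/+ 1 to 3, then 6.21, 5.94, 5.63 and 6.08 in PrlR+/- 1 to 4. The PrlR+/- mice held both the highest and the lowest value, and the difference was 0.07 ± 0.13 (SE; limma, adjusted p = 0.99), a ratio of 1.05 (95% interval 0.844 to 1.31). Avpr2 (probe set 10600310, chromosome X, 73891765 to 73894428) was nearly flat, at 5.97, 5.97 and 6.11 in PrlR+/+ 1 to 3, then 5.95, 5.97, 5.97 and 6.07 in PrlR+/- 1 to 4. Its difference was -0.03 ± 0.06 (SE; limma, adjusted p = 0.99), a ratio of 0.982 (95% interval 0.885 to 1.09). Both genes were dim, as the comparison of brightness shows.

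The hormone genes lie next to each other on chromosome 2, end to end and read toward each other, 3565 bases apart. Oxt (probe set 10476192, 130574519 to 130577054) encodes the precursor of oxytocin and its carrier neurophysin. It was at 7.55, 7.78 and 7.78 in PrlR+/+ 1 to 3 and at 7.76, 7.90, 7.46 and 8.01 in PrlR+/- 1 to 4. The PrlR+/- values enclosed the PrlR+/+ values, with a difference of 0.08 ± 0.14 (SE; limma, adjusted p = 0.99) and a ratio of 1.06 (95% interval 0.846 to 1.32). Avp (probe set 10487685, 130580620 to 130582588) encodes the precursor of vasopressin. It was at 7.27, 7.21 and 7.37 in PrlR+/+ 1 to 3 and at 7.35, 7.43, 7.15 and 7.27 in PrlR+/- 1 to 4. The difference was 0.02 ± 0.08 (SE; limma, adjusted p = 0.994), a ratio of 1.01 (95% interval 0.885 to 1.16). The neurophysin parts of both genes are nearly identical in sequence, so probes of one may also bind transcripts of the other and these values are uncertain as to the gene. The 2-sided exact permutation tests gave p = 0.771 for Avpr1a, 0.60 for Avpr2, 0.60 for Oxt and 0.943 for Avp.

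**Figure D3:**
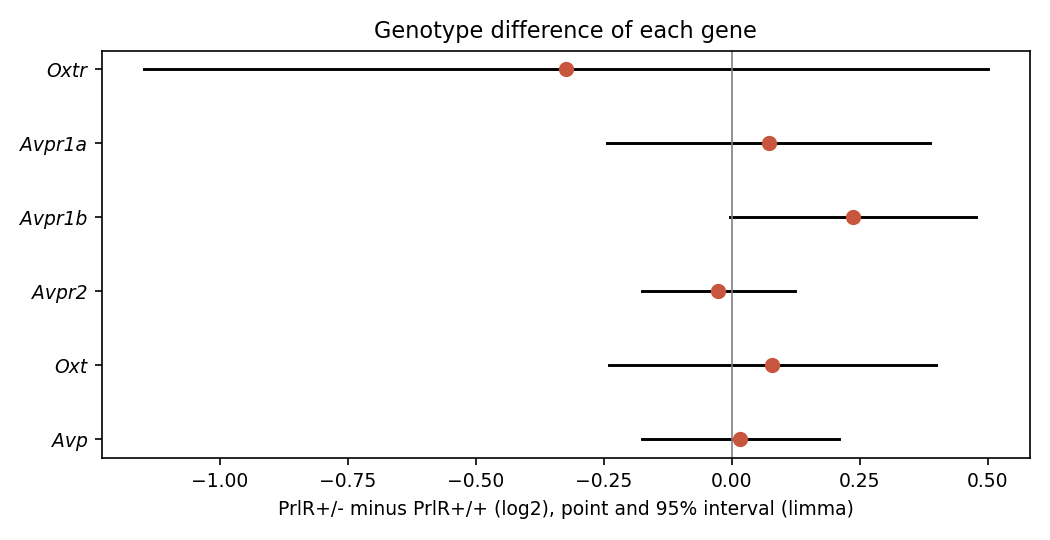
Log2 difference, PrlR+/- minus PrlR+/+ (x axis), of each of the 6 genes, with its 95% interval from limma (n = 4 and n = 3). Every interval includes 0; that of Oxtr is the widest, from -1.15 to 0.50, and that of Avpr1b reaches from -0.0042 to 0.48.

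The deposited table gives no call of detection, so brightness was described against a class of genes that, for the most part, islets are not known to use. The 1194 olfactory and vomeronasal receptor genes on the array had means with a median of 4.15 and a 95th percentile of 5.94, and 71.4% of all genes lay above that percentile. The mean of Oxtr over the 7 mice, 9.51, lay above every one of these chemoreceptor genes and at the 82.2nd percentile of all genes. Oxt (7.75), Avp (7.29) and Avpr1b (6.72) lay above 99.7%, 99.4% and 98.8% of the chemoreceptor genes. Avpr2 (6.00) and Avpr1a (5.93) lay above 95.8% and 94.8% of them, next to the percentile itself. Compared array by array, Avpr1a lay above that array's own chemoreceptor percentile in 4 of 7 mice, Avpr2 in 6 of 7, and the other 4 genes in 7 of 7. Probes differ in affinity, so these positions are a description of brightness and do not rank transcript levels.

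**Figure D4:**
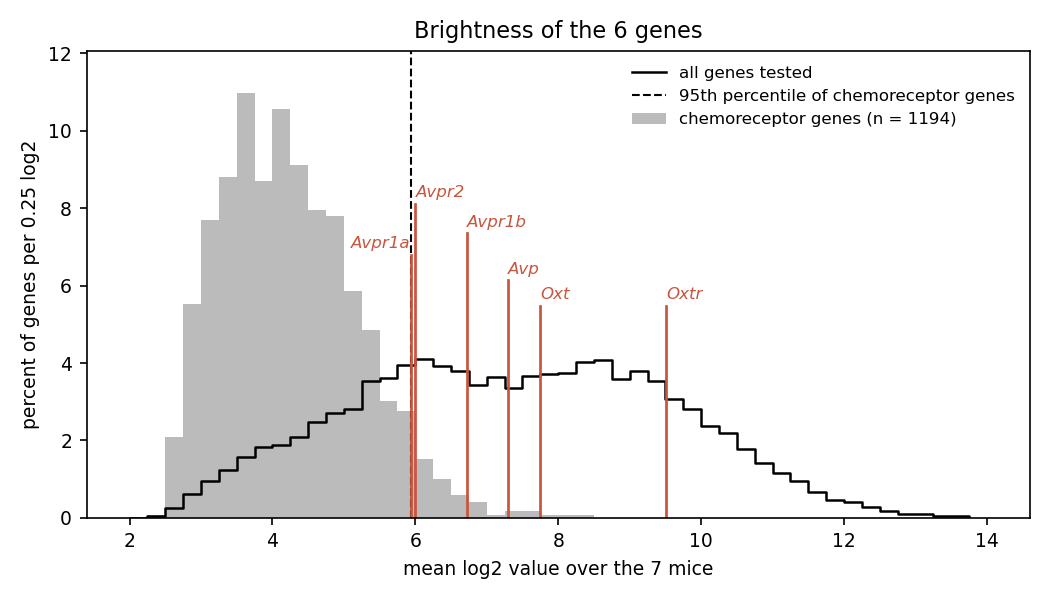
Share of genes (y axis, percent per 0.25 log2) by mean log2 value over the 7 mice (x axis) for 1194 chemoreceptor genes (grey bars) and all genes tested (black line), with the 6 genes as red lines. Avpr1a and Avpr2 lie at the dashed 95th percentile of the chemoreceptor genes, 5.94, and Oxtr at 9.51 lies beyond them.

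The neurons known to make oxytocin and vasopressin were represented by 10 marker genes, to set beside the brightness of Oxt and Avp. Of these, 8 lay above the chemoreceptor percentile, as did 71.4% of all genes. Sim1 (8.65 to 9.03) and Otp (7.79 to 8.06), transcription factor genes needed to form these neurons, lay above it. Crh (mean 3.7) and Slc17a6 (mean 4.7) lay below it. The median difference of the 10 markers was 0.0871. In PrlR+/- 8 of 10 were higher, as were 56.2% of all genes, and 0 passed. Nos1, neuronal nitric oxide synthase, had the smallest p (0.30 ± 0.19, SE; limma, adjusted p = 0.99). Averaged per mouse, the 10 markers ran from 6.74 to 6.84 in the wild type and from 6.80 to 7.05 in the heterozygotes. Gal had the largest difference of the 10 (0.59 ± 0.39, SE). In PrlR+/- 2, the mouse at 7.05, Gal (10.28) and Pdyn (9.29) were at their highest, while Sim1 (8.68) lay toward the low end of its range. The part of the markers in the Oxt and Avp values was not tested. Whether these genes are used by islet cells or by cells around them was not measured.

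Signalling genes below the receptors were near 0 as lists. All genes tested had a median difference of 0.0142, with 56.2% higher in PrlR+/-. Of 19 measured genes of Gq and phospholipase C signalling, 12 were higher, 7 lower and 0 passed, with a median of 0.0142. The 2 of smallest p were Plcb2, a phospholipase C of blood cells and chemosensory cells (0.13 ± 0.08, SE), and Dgka, a diacylglycerol kinase that removes one product of phospholipase C (-0.16 ± 0.12). Of 17 genes of Gs and cyclic AMP signalling, the route of Avpr2, 8 were higher, 9 lower and 0 passed, with a median of -0.000833. Prkar2b, a regulatory subunit of protein kinase A, was at 10.16, 10.03 and 10.15 in PrlR+/+ 1 to 3 and at 10.03, 9.68, 9.88 and 9.58 in PrlR+/- 1 to 4 (-0.32 ± 0.11, SE; limma, unadjusted p = 0.0241, adjusted p = 0.99). Its groups met at 10.03, and Prkar2a, a close relative, was at -0.17 ± 0.08.

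Among 11 genes that limit or end receptor signalling, 6 were higher, 5 lower and 0 passed, with a median of 0.0133, which was 0.155 without PrlR+/+ 2, -0.075 without PrlR+/+ 1 and -0.0375 without PrlR+/+ 3. Rgs3, which speeds the shut-off of Gq and Gi proteins, was at 8.24, 8.15 and 8.33 in PrlR+/+ 1 to 3 and at 8.45, 8.55, 8.96 and 8.78 in PrlR+/- 1 to 4. Every PrlR+/- mouse lay above every PrlR+/+ mouse, with a difference of 0.45 ± 0.13 (SE; limma, unadjusted p = 0.00928, adjusted p = 0.99). It was 1 of 11 with groups that did not overlap and the PrlR+/- group higher, a pattern found in 1.03% of all genes. Arrb2, an arrestin that uncouples receptors from G proteins, was at 0.44 ± 0.20 (SE; limma, unadjusted p = 0.0589), with PrlR+/- 3 and 4 (9.58 and 9.67) above the other 5 mice.

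Genes of peptide maturation, release and breakdown and of other Gq-coupled receptors also held no gene that passed. For maturation, release and breakdown, 2 of 7 measured genes were higher and 5 lower, with a median of -0.0125, which was 0.0925 without PrlR+/+ 2. The genes of smallest p were Scg5, the chaperone of a prohormone convertase (0.15 ± 0.11, SE), and Prep, a peptidase that can cleave oxytocin and vasopressin (-0.095 ± 0.0945). Of 18 other Gq-coupled receptors, 11 were higher and 7 lower, with a median of 0.0454. The ADP receptor gene P2ry1 was at -0.48 ± 0.33 and the serotonin receptor gene Htr2b at 0.12 ± 0.08 (SE). Htr2b was dim, its mean of 4.86 lying under the chemoreceptor percentile of 5.94, which 14 of the 18 receptors exceeded.

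The genes beside the members were read to see whether a locus moved as a whole. Cav3, a muscle caveolin gene 810 bases from Oxtr, was at 0.01 ± 0.08 (SE). Rad18, a DNA repair gene 128815 bases away on the other side of Oxtr, was at -0.47 ± 0.22 (limma, unadjusted p = 0.0668, adjusted p = 0.99). Its lowest value, 7.93, lay in the same mouse as that of Oxtr. L1cam, a neural adhesion gene beside Avpr2, was at 7.59, 7.40 and 7.50 in PrlR+/+ 1 to 3 and at 7.68, 7.66, 7.79 and 7.74 in PrlR+/- 1 to 4. Its groups did not overlap, with a difference of 0.22 ± 0.07 (SE; limma, unadjusted p = 0.0129, adjusted p = 0.99), where 1.03% of all genes separated in this direction. Arhgap4, whose annotated span overlaps that of Avpr2 by 77 bases, was at 0.11 ± 0.09, and Mrps26, beside Oxt, at 0.46 ± 0.34. Around Avpr1a, the differences were 0.18 ± 0.24 for Rxylt1, 351132 bases away, and -0.04 ± 0.08 for Ppm1h, 223974 bases away. Around Avpr1b, they were 0.03 ± 0.08 for Fam72a and -0.01 ± 0.08 for Ctse. Beyond Avp, the difference of Lzts3 was -0.005 ± 0.055. The means of Cav3 (5.80), Arhgap4 (5.89), Fam72a (5.33) and Ctse (5.44) lay under the chemoreceptor percentile of 5.94. Differences of genes this dim cannot show whether a locus moved.

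The genes that followed Oxtr most closely from mouse to mouse were sought among 3764 named genes above the chemoreceptor percentile with an SD of at least 0.2 over the 7 mice. The 5 of highest Pearson r over the 7 mice were the TBC domain gene Grtp1 (r = 0.989, Spearman rho = 0.991), the imprinted gene Mest (r = 0.982, rho = 1), the SCAN domain gene Scand1 (r = 0.979, rho = 0.991), the splicing gene Ppih (r = 0.967, rho = 0.964) and Rrm2, a subunit of the enzyme that makes deoxyribonucleotides for DNA synthesis (r = 0.965, rho = 0.964). No p is given, since they were found by searching many genes over few mice. Mest was at 9.16, 7.55 and 8.15 in PrlR+/+ 1 to 3 and at 8.78, 8.70, 7.49 and 7.04 in PrlR+/- 1 to 4, which is the order of Oxtr in all 7 mice. Without PrlR+/- 4 and PrlR+/+ 1, the mice farthest from the median of Oxtr, r lay between 0.909 (Ppih) and 0.977 (Scand1) for these 5 genes. After subtracting each genotype's mean, r lay between 0.963 (Ppih) and 0.991 (Mest). The genes were picked for a high r over the same mice, so these values describe them and are no separate evidence. None of the 5 passed between genotypes (limma, adjusted p = 0.99 for each).

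**Figure D5:**
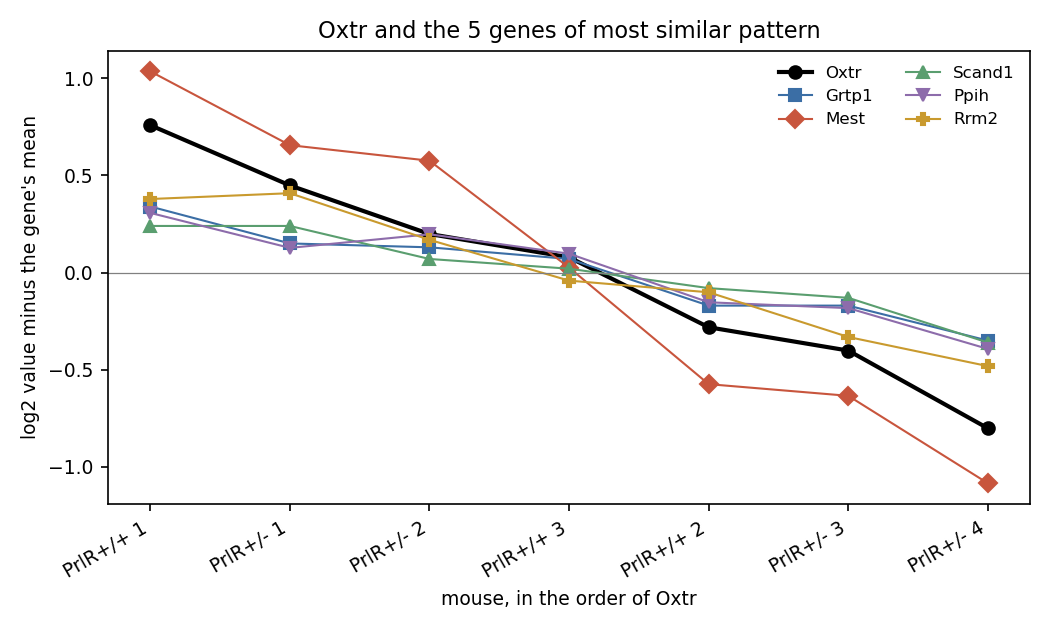
Log2 value minus the gene's mean over the 7 mice (y axis) for Oxtr (black) and the 5 genes of highest r with it, in the mice ordered by Oxtr (x axis). The genes were picked for this likeness; PrlR+/+ 1 and PrlR+/- 4 stand at the ends, and mice of both genotypes mix in between.

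The other members did not share the pattern of Oxtr, whose r with them over the 7 mice was 0.454 for Avp, 0.046 for Avpr1a, 0.017 for Avpr1b, -0.355 for Oxt and -0.394 for Avpr2. Among the remaining pairs the highest r was 0.74, between Avpr1a and Oxt, which were both lowest in PrlR+/- 3 and had their 2 highest values in heterozygotes. On the PrlR+/- 3 array the chemoreceptor 95th percentile (5.80) and the lower quartile of all genes (5.62) were the lowest of the 7. Avp (7.15) was lowest on it too, and Avpr1b (6.61) was lowest on it among the heterozygotes. The part of the array in these values was not tested. The r values are descriptions of 7 arrays that share their normalization.

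The libraries carried the labelled tissue. Ins2 (13.23 to 13.36), Gcg (13.47 to 13.63) and Sst (13.36 to 13.70) were bright in every mouse, and so was the acinar gene Cpa1 (13.62 to 13.77), so RNA of digestive tissue was present in both groups. Median differences were -0.0408 for 9 beta cell, 0.0904 for 6 delta cell, 0.132 for 7 acinar, 0.0533 for 10 endothelial and 0.0471 for 10 smooth muscle and pericyte markers, with 0 passing. The endothelial genes Emcn (0.26 ± 0.09) and Cdh5 (0.23 ± 0.10, SE) had the smallest p among these markers. Of the 10 endothelial markers 7 were higher and 3 lower, Kdr (-0.17 ± 0.18), Esam (-0.11 ± 0.08) and Tek (-0.02 ± 0.17) among the latter. The groups did not overlap for Emcn, where 1.03% of all genes separated in this direction. The mean of the beta cell markers was lowest in PrlR+/- 4 (11.92, against 12.05 to 12.21 in the other 6 mice), the mouse of lowest Oxtr. The markers were split in that mouse. Slc2a2 (11.31) and Mafa (9.54) were at their lowest, and Iapp (13.52) and Nkx6-1 (11.27) at their highest. The rest lay between their extremes. The mean of the alpha cell markers was lowest in PrlR+/- 4 too (10.94, against 11.05 to 11.16). That of the delta cell markers was second lowest there (8.79, with 8.74 in PrlR+/+ 2). Of the alpha cell markers only Slc7a2 was lowest in PrlR+/- 4 (10.50, against 11.35 to 11.45 in the other 6 mice). Ttr was highest there (13.16), and Gcg, Irx1 and Irx2 lay between their extremes. The part of these markers in the Oxtr value was not tested. On the same array the lower quartile of all genes was 5.82, against 5.62 to 5.73 on the others. Avpr1a, Avpr1b and Avpr2 had their second highest values on that array (6.08, 6.94 and 6.07), and Oxt had its highest (8.01). Oxtr was at its lowest on it, and Avp (7.27) lay between its extremes. The part of the array in these values was not tested. Prlr itself was not analysed here, which leaves the labelled genotypes without a check from the arrays.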

How the data were processed

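The authors deposited 1 table of log2 values for 35556 probe sets, 1 column per mouse; their range shows the log2 scale. Affymetrix Expression Console 1.2.0.20 is named in the submitters' processing notes, and how background and normalization were handled is not given in the sources used here. Per the labels' protocols, 250 ng of RNA with an integrity number above 8.5 was labelled per mouse. Arrays have no read depth; their number limits the precision. No scan dates or batches were analysed here.

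Of the probe sets, 21789 were annotated to 1 gene symbol and were used, with the brightest per gene where a gene had several (999 genes). Groups came from the source labels. Differences were fitted on all genes with limma 3.58.1 (lmFit, eBayes) in R 4.3.3, 2-sided, and checked on simulated data; tables used pandas 2.3.3. Intervals are limma's 95% intervals. Loci and promoter windows are from RefSeq, GRCm38.p6. Genes named by rule are the members, the 2 genes of smallest p per pathway list and the leading and smallest-p markers of each cell type. Neighbours and the 5 genes most like Oxtr complete that rule. The markers Kdr, Esam, Tek, Crh, Slc17a6, Gal, Pdyn, Slc2a2, Mafa, Iapp, Slc7a2, Ttr and Irx1 were added outside it. So were the genes first named under Other observations. The members, lists and tests were chosen with earlier results of these data known.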

Additional observations from a re-analysis of the deposited data

Results flagged for a closer look

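The 49 genes named by rule were searched for outliers. In 3 of them, or 6.12%, 1 of the 4 PrlR+/- mice stood far from the other 3 relative to the group's range. Chance alone gives about 1 in 20. Avpr2 was at 6.07 in PrlR+/- 4, against 5.95 to 5.97 in the other 3, on the array whose chemoreceptor genes had the highest 95th percentile (6.07, against 5.80 to 5.97 on the others). Hhex, a delta cell transcription factor gene, was at 6.75 in PrlR+/- 4 against 7.57 to 7.73 in the other 3, while PrlR+/+ 2 was at 6.89. Fam72a, beside Avpr1b, was at 5.41 in PrlR+/- 3 and at 5.32 in each of the other 3. PrlR+/+ 1 to 3 were at 5.45, 5.17 and 5.32, so the PrlR+/- 3 value lay within the wild-type range. The mean of Fam72a, 5.33, lay under the chemoreceptor percentile of 5.94.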

How the results depend on the processing

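In each of the 17 alternatives run, a looser threshold of 0.1 among them, 0 genes passed limma's adjusted p; genes with an unadjusted p under 0.05 numbered 438 in the reported fit, 1132 with array weights and from 247 to 794 with 1 mouse left out. No member passed in any of them. Oxtr, Avpr1b and Oxt kept their sign: leaving out 1 mouse gave -0.56 to -0.04, 0.19 to 0.31 and 0.0025 to 0.19. Leaving out 1 mouse turned the sign of Avpr1a (-0.01 to 0.18), Avpr2 (-0.0533 to 0.02) and Avp (-0.0267 to 0.0667, with -0.02 without PrlR+/+ 2). It also moved the median of the peptide maturation, release and breakdown list (-0.0575 to 0.0925). Those of the receptor desensitization (-0.075 to 0.155), delta cell (-0.045 to 0.169) and acinar (0 to 0.2) lists moved more widely. The cause was not tested. The medians of the neuron, alpha cell and other Gq-coupled receptor lists stayed above 0 with 1 mouse left out, that of the acinar list reached 0, and those of the other lists took both signs. The labels do not say whether the replicate numbers pair the mice. Deviations from the group means correlated at 0.09, -0.39 and -0.03 for numbers 1 to 3, and so few values cannot decide it. With the replicate block, which leaves PrlR+/- 4 without a partner, 0 genes were called, Oxtr was at -0.10 and Avpr1b at 0.20 (limma, unadjusted p = 0.048, adjusted p = 1). The filters on dim genes left out Avpr1a, and the one at the 40th percentile also Avpr2. Quantile normalization and median centring moved the median of all genes to 0.0288 and 0.00417 and changed no sign among the members.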

Other observations

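The values of Mki67, Top2a and Ccna2 are given beside Oxtr; they were picked by hand after their values were seen, no list of such genes was counted, and no p is given. Mki67, a marker of cycling cells, was at 8.40, 7.41 and 7.98 in PrlR+/+ 1 to 3 and at 8.31, 8.36, 7.73 and 7.38 in PrlR+/- 1 to 4 (r = 0.911 with Oxtr over the 7 mice, rho = 0.929, and r = 0.97 after subtracting the genotype means). Top2a, a topoisomerase of dividing cells, had r = 0.94 and Ccna2, cyclin A2, r = 0.888. Without the mice farthest from the median of Oxtr, r was 0.87 for Mki67, 0.87 for Top2a and 0.82 for Ccna2.

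The 5 genes of lowest r with Oxtr, by the rule used for those of highest r, were Arid5b (r = -0.956, rho = -1), Cebpd (r = -0.944), Pcyt1a (r = -0.942), Thrsp (r = -0.941) and Usp2 (r = -0.936). Cebpd, a transcription factor gene induced by inflammatory and glucocorticoid signals, was at 6.50, 7.10 and 7.02 in PrlR+/+ 1 to 3 and at 6.34, 6.65, 7.19 and 7.65 in PrlR+/- 1 to 4. Rgs2, also picked after its values were seen and not by that rule, shuts off Gq, the protein that Oxtr acts through. It ranged from 8.36 to 11.51 and was at 8.78, 11.51 and 9.93 in PrlR+/+ 1 to 3 and at 9.09, 8.36, 9.92 and 11.25 in PrlR+/- 1 to 4. Its r with Oxtr was -0.796 over the 7 mice and -0.684 without the 2 farthest. The other RGS genes of the list of receptor desensitization had r of -0.57 (Rgs3), -0.231 (Rgs4), 0.206 (Rgs7), -0.275 (Rgs9) and -0.45 (Rgs16). Of the 3764 genes searched, 59 had r above 0.9 with Oxtr and 25 had r below -0.9.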
